A study of Homo sapiens with 18 samples.

Results

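The genes described here encode the proteins of the cytosolic ribosome. They were taken by symbol from the count table: RPL or RPS followed by a number, with the letter endings that such symbols carry, and RPSA, RPLP0, RPLP1 and RPLP2. Of 60642 gene symbols 86 met this rule, and 1149 pseudogene symbols built on the same names were left out. The 86 members comprise 77 core genes (46 of the large subunit and 31 of the small subunit) and 9 paralogs outside the core set. The paralogs are RPL3L, RPL7L1, RPL10L, RPL22L1, RPL26L1, RPL39L, RPS27L and the Y-linked copies of RPS4X. Naming by pattern misses 4 genes, among them FAU, RACK1 and RPL36AL, which encode ribosomal proteins or a close relative of one under other names. They were kept as a list of their own.

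RNA was sequenced in 18 libraries from 2 human colorectal cancer cell lines, with 3 libraries in each of 6 groups. HT-29 iZEB1 is the HT-29 line carrying a ZEB1 gene that doxycycline (DOX) switches on, and ZEB1 is a transcription factor known for driving the epithelial to mesenchymal transition. Its groups were DMSO, RepSox, DOX with DMSO, and DOX with RepSox. SW620, a line derived from a lymph node metastasis, carries no such system and had DMSO and RepSox groups. RepSox inhibits the type I receptor of TGF-β (ALK5) and was given at 10 µM for 24 h, DMSO is its vehicle, and DOX was given at 1 µg/ml. The treatment protocol gives 24 h of DOX, whereas the design text gives 48 h. Effects of DOX itself and of ZEB1 cannot be told apart, since no DOX group without the ZEB1 gene was used here. The labels do not say whether replicates were separate cultures, so the p-values below reflect how far these libraries scatter, and that scatter may be technical.

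A ribosome is built from ribosomal RNA and a copy of each ribosomal protein, so the genes of the core proteins are commonly transcribed as a set. Their messages belong to the TOP mRNAs, which start with a C followed by a run of pyrimidines and whose translation is controlled by mTOR through LARP1. Some proteins have roles of their own: RPL5 and RPL11 form the 5S particle and bind MDM2 when ribosome assembly fails, RPLP0, RPLP1 and RPLP2 form the stalk that recruits elongation factors, and RPS6 is the substrate of the S6 kinases.

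Library totals ran from 36.5 to 39.8 M counts. Levels are given as CPM, counts brought to a common library size by TMM. ZEB1 read 7.38 to 10.4 CPM in HT-29 iZEB1 with DMSO, 372 to 385 with DOX and DMSO, and 14.6 to 17.4 with DOX and RepSox. RepSox given with DOX therefore went together with a much lower ZEB1 level, and the share of either in the comparison below cannot be told apart. Of the epithelial markers, KRT8 had a mean of 2920 to 6700 CPM in every group, while CDH1 stood at 9.97 CPM in SW620 with DMSO and CDX2 at 0.339 CPM in HT-29 iZEB1 with DMSO. Fibroblast, leukocyte and endothelial markers were at or near 0, except LYZ with 1200 to 1760 CPM in HT-29 iZEB1, CD14 at up to 6.27 CPM, LUM at up to 7.62 CPM and PECAM1 at up to 3.34 CPM.

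The start of the message was read from RefSeq (GRCh38.p14), which matched 62 of the 77 core genes and 7 of the 9 paralogs. A start tract was counted where the first base was C and at least 4 further bases were each C or T. It was present in 46 core genes (74.2%) but in 2 paralogs (28.6%), against 5.14% of all 27305 genes in that table. Sequences are shown for RPS6, the S6 kinase substrate, and for RPL38 and RPL13A, which are named in comparisons below. They are also shown for 3 core genes beside their paralogs, since the tract was rarer among the paralogs. Each runs from 45 bases before the annotated start to 15 bases from it, and capitals mark the start tract where there is one.
RPS6: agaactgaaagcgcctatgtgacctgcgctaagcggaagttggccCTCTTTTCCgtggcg
RPL38: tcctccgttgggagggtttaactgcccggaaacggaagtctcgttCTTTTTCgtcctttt
RPL13A: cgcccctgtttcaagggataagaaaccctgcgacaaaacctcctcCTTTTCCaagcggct
RPS27: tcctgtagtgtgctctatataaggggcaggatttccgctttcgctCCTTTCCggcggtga
RPS27L: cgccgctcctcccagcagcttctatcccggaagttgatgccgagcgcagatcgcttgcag
RPL22: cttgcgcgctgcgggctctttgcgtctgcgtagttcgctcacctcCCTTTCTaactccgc
RPL22L1: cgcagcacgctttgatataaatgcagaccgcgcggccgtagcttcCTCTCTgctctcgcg
RPL26: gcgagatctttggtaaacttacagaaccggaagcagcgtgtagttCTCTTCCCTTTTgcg
RPL26L1: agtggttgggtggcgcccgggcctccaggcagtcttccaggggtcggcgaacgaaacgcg

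The windows lie at chr9:19380222-19380281 on the minus strand for RPS6, chr17:74203633-74203692 on the plus strand for RPL38 and chr19:49487563-49487622 on the plus strand for RPL13A. Those of the pairs lie at chr1:153990717-153990776 (plus) for RPS27, chr15:63157463-63157522 (minus) for RPS27L, chr1:6199581-6199640 (minus) for RPL22, chr3:170870181-170870240 (minus) for RPL22L1, chr17:8383179-8383238 (minus) for RPL26 and chr5:172958684-172958743 (plus) for RPL26L1. RPL26 had the longest of these tracts, with 12 bases, and RPS6 had 9. RPS27L, RPL26L1 (which has 2 annotated starts) and RPL7L1 had none at the starts read. RPL22L1 kept a tract of 6 bases. RPL3 also lacks one by this definition, with 4 bases. Other TOP mRNAs carried the tract in 13 of 14 matched genes (92.9%), and genes of the mitochondrial ribosome in 6 of 68 (8.82%).

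The 250 bases before the start were searched on both strands, for each motif separately. CCGGAA, the core letters of ETS factor sites, was found in 50% of the matched core genes and in 17.2% of all genes in the table. GGGCGG, the letters of a GC box, was found in 58.1% and 46.2%, and TATAAA in 8.06% and 13%. These are matches of letters and do not show binding.

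Members differed widely in level. Per length of transcript, RPLP1 was highest in HT-29 iZEB1 with DMSO at 3190 CPM per kb, and RPS2 and RPL13A, both at 2730, were also among the highest. In SW620 with DMSO the order was RPS24 at 2620 CPM per kb, RPLP1 at 2520 and RPS2 at 2470. The lowest core members were RPS10 (2.64 CPM per kb), RPL36A (6.58) and RPL17 (18.7) in HT-29 iZEB1 with DMSO, and all of them were among the 4 lowest in SW620 with DMSO.

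These genes are among 7 members that share more than 40% of their coding bases with other annotated genes on the same strand. In GENCODE 29, RPL17 (chr18:49488453-49492523, minus) shares 98.2% of its coding bases with RPL17-C18orf32, RPS10 (chr6:34417454-34426125, minus) 73.8% with RPS10-NUDT3 and RPL36A (chrX:101390824-101396154, plus) 72.1% with RPL36A-HNRNPH2. RPL26 (67.8%), RPL22 (59.9%) and RPS15A (43.6%) overlap others in the same way. RPL28 (2.91%) and RPL13A (1.31%) overlap others by less and are not among the 7. The 7 overlapping symbols held 0 to 2 counts each over all 18 libraries. The values of these 7 members are therefore uncertain, and each main count below is also given without them. How the authors' counting treated reads that fall on 2 genes was not tested. Pseudogene symbols took 78.5% of the counts of RPS10 and its pseudogenes together, 27% for RPS28, 17.1% for RPL21, 16.1% for RPL26 and 16% for RPL10.

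The members took 6.27% ± 0.32 (SD, n = 3) of all counts in HT-29 iZEB1 with DMSO and 7.02% ± 0.082 with RepSox. With DOX the share was 6.4% ± 0.21 in DMSO and 6.93% ± 0.17 in RepSox. The order in SW620 was opposite, with 6.65% ± 0.19 in DMSO and 6.04% ± 0.082 in RepSox. RepSox groups did not overlap their DMSO groups: the 3 HT-29 iZEB1 libraries with RepSox alone ran from 6.95% to 7.11% against 5.91% to 6.55% with DMSO. In SW620 they ran from 5.96% to 6.12% against 6.44% to 6.81%. The differences were 0.753 percentage points without DOX, 0.524 with DOX and -0.612 in SW620, each with an exact permutation p of 0.1 (two-sided, n = 3), the smallest that 3 against 3 libraries can give. DOX in DMSO moved the share by 0.135 points with overlapping groups (exact p = 0.6). In bulk RNA, fewer cells of a type and less RNA per cell cannot be told apart, and a share also moves when other genes do.

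**Figure D1:**
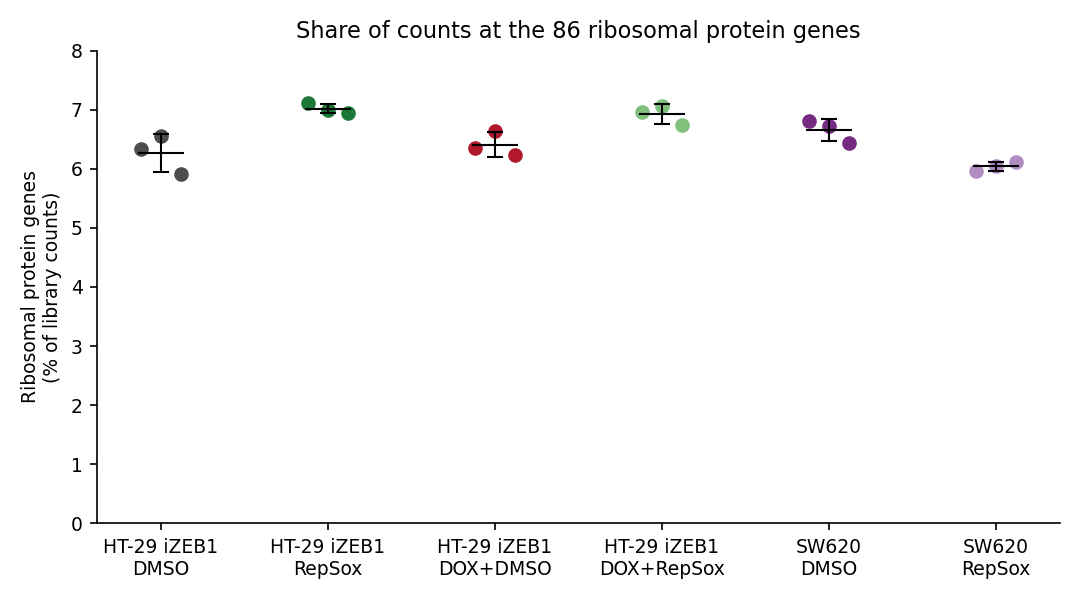
Share of library counts at the 86 ribosomal protein genes (vertical axis, percent) in 6 groups (horizontal axis); points are libraries, bars the mean with its SD (n = 3). The RepSox libraries lie above their DMSO libraries in HT-29 iZEB1 (6.95% to 7.11% against 5.91% to 6.55% without DOX) and below them in SW620 (5.96% to 6.12% against 6.44% to 6.81%).

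The mean share of mitochondrially encoded genes moved the other way. It was 4.84% ± 0.5 (SD, n = 3) with DMSO and 3.54% ± 0.9 with RepSox in HT-29 iZEB1. With DOX it was 4.41% ± 1.4 and 3.33% ± 0.46, and in SW620 4.9% ± 0.25 and 5.5% ± 0.51. The groups overlapped with DOX and in SW620, and the difference in this share was not tested. With the mitochondrially encoded genes left out of the total, the differences in the ribosomal protein share were 0.693, 0.468 and -0.603 points. In HT-29 iZEB1 with DMSO, replicate 3 had the lowest share (5.91%), and only 7 of the 77 core genes were above their group mean there. In SW620 with DMSO, replicate 3 was lowest (6.44%), with 8 of 77 above. Both are control libraries, and their weight in each count is given below.

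DOX without RepSox lowered few members. Of 81 members tested, 7 fell, where 21.1% of all genes tested fell, and 0 rose, where 19.2% of all genes rose (edgeR's quasi-likelihood test, adjusted p below 0.05 over all 16978 genes, 12 HT-29 iZEB1 libraries). At an unadjusted p below 0.05, 1 rose, and DESeq2 called 0. With scaling by library totals 2 rose and 5 fell. The median log2 change of the members was -0.04, against 0.00 over all genes tested. Among the 7 that fell were RPL36A, RPL17, RPL35, RPL7L1, RPL29 and RPL8. Of 2319 genes outside the rule with at least 100 CPM, 35.2% fell and 16.4% rose, with a median of -0.08.

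RPL17, which lines the exit tunnel of the large subunit, read 13.8, 14.2 and 12.9 CPM with DMSO and 9.14, 9.74 and 8.99 CPM with DOX and DMSO. All DOX libraries lay below all controls, and RPL17 fell by 0.55 on the log2 scale (SE 0.1, adjusted p = 0.00023). It is among the members of uncertain counts, as is RPL36A, with a log2 change of -0.69.

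RPL35 (chr9:124857880-124861981, minus), a protein near the tunnel exit, read 521, 580 and 454 CPM with DMSO and 413, 416 and 410 CPM with DOX. The groups did not overlap, and RPL35 fell by 0.32 (SE 0.094, adjusted p = 0.00972). That call was lost without replicate 2 of the DMSO group (0.0741). RPL7L1 (chr6:42879618-42889925, plus), a relative of RPL7 known from ribosome assembly, went from 218, 225 and 217 CPM to 187, 183 and 185 CPM and fell by 0.25 (SE 0.054, adjusted p = 0.00125).

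Without the 7 members that overlap another gene, 4 of 74 fell. The remaining log2 changes ran from -0.32 to 0.16. The 7 falls became 4 without replicate 2 of the DMSO group, and 14 without its replicate 3 or without replicate 2 of the group with DOX and DMSO. The median of the members was 0.03 with scaling by library totals and 0.02 with upper-quartile scaling, where that of all genes was 0.08 and 0.06, so the members' median lay below that of all genes under each scaling.

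Other lists of genes tied to ribosomes gave mixed counts with DOX, where 21.1% of all genes fell and 19.2% rose. Of 19 other TOP mRNAs 3 fell (15.8%) and 1 rose (5.26%), both below the shares of all genes, with a median of 0.03. Of 18 ribosomal protein chaperones and assembly factors 11 fell and 0 rose, with a median of -0.32. BCCIP, a chaperone of RPL23, fell by 0.60 (SE 0.062, adjusted p = 2.94e-07), and PDCD2L, a relative of the RPS2 chaperone PDCD2, fell by 0.70 (SE 0.091, adjusted p = 5.49e-06). Of 76 mitochondrial ribosomal protein genes tested 36 fell and 1 rose, with a median of -0.20. MYC, which is known to drive ribosome production, read 207, 213 and 204 CPM with DMSO and 111, 131 and 127 CPM with DOX. It fell by 0.75 (SE 0.066, adjusted p = 3.18e-08).

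In the presence of DOX, RepSox raised the members broadly. Of 81 tested, 47 rose, where 26.8% of all genes rose, and 1 fell, where 25.5% fell. The median log2 change was 0.20, against -0.01 over all genes tested. The rise covered 28 of 46 core genes of the large subunit and 16 of 31 of the small subunit. Without the 7 overlapping members, 41 of 74 rose. This comparison and the one of DOX in DMSO share the group with DOX and DMSO, so their values for a gene are not independent.

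RPL17 rose by 0.65 on the log2 scale (SE 0.1, adjusted p = 2.41e-05), to 16.5, 13.1 and 14.4 CPM with DOX and RepSox. Every library with DOX and RepSox lay above every library with DOX and DMSO. RPL7L1 read 258, 269 and 275 CPM with DOX and RepSox and rose by 0.52 (SE 0.054, adjusted p = 1.99e-07). RPL35 read 594, 632 and 488 CPM and rose by 0.46 (SE 0.094, adjusted p = 0.000453). RPL36A (0.68) and RPS10 (0.59, at 1.09 to 2.44 CPM in the libraries compared) also rose.

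Smaller changes were called too. RPS7, which can bind MDM2, rose by 0.43 (SE 0.067, adjusted p = 3.02e-05), RPL19 by 0.41 and RPL3, near the peptidyl transferase centre, by 0.29 (SE 0.06, adjusted p = 0.000402). The member that fell was RPS27L, a p53 target, described with the paralogs below. The count of 47 was 31 with scaling by library totals, and 34 to 50 when single libraries were left out.

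All 4 ribosomal protein genes that the rule leaves out rose, among them FAU, the source of the small subunit protein eS30, at 0.38 (SE 0.069, adjusted p = 0.000119). Of 76 mitochondrial ribosomal protein genes 57 rose and 1 fell (median 0.36), and of 18 assembly factors 13 rose and 1 fell (median 0.42). Other TOP mRNAs rose in 9 of 19 and fell in 1. Over all genes tested 26.8% rose and 25.5% fell. MYC, at 373, 374 and 377 CPM with DOX and RepSox, rose by 1.60 (SE 0.066, adjusted p = 1.22e-12). Among 2319 genes outside the rule with at least 100 CPM, 41.2% rose and 23.6% fell, with a median of 0.08. The part of MYC in the members' change was not tested.

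**Figure D2:**
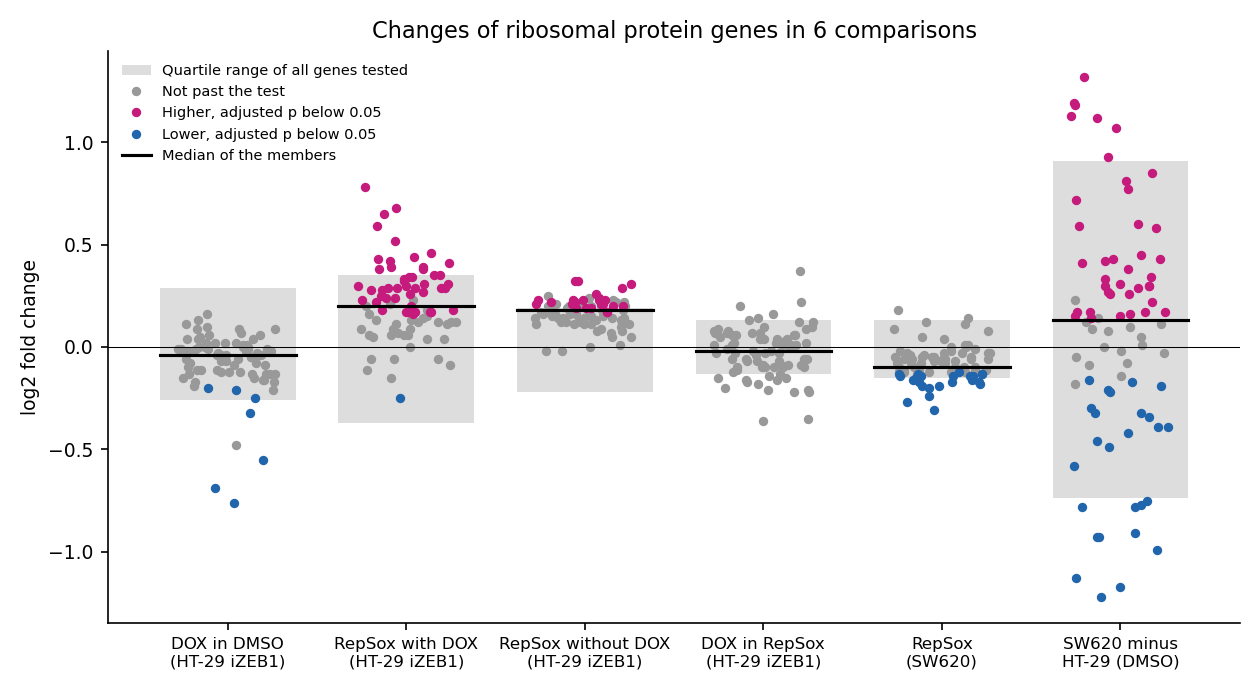
Log2 fold changes (vertical axis) of the ribosomal protein genes tested in 6 comparisons (horizontal axis); each point is a gene, coloured by its call, the black line is the members' median and the grey band spans the lower to the upper quartile of all genes tested. With RepSox the members sit above 0 in HT-29 iZEB1 (medians 0.20 and 0.18) and below 0 in SW620 (median -0.10), and they spread most between the lines (-1.22 to 1.32).

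RepSox without DOX also raised members, by similar amounts from gene to gene. Of 81 tested, 25 rose, where 12.5% of all genes rose, and 0 fell, where 12.8% fell (0 by edgeR at an unadjusted p below 0.05 and 0 by DESeq2). The log2 changes ran from -0.02 to 0.32 with a median of 0.18, and 78 of 81 were above 0. Of 2319 genes outside the rule with at least 100 CPM, 19.4% rose and 14.1% fell, with a median of 0.02. RPLP1 (chr15:69452784-69456194, plus), of the stalk, read 1440, 1500 and 1310 CPM with DMSO and 1780, 1710 and 1850 CPM with RepSox. The groups did not overlap, and RPLP1 rose by 0.32 (SE 0.075, adjusted p = 0.00398).

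RPL38 (chr17:74203582-74210655, plus), known for its part in translating Hox messages in the embryo, read 211, 208 and 203 CPM with DMSO and 214, 283 and 285 CPM with RepSox. It rose by 0.32 (SE 0.096, adjusted p = 0.0186), although 1 RepSox library lay close to the controls. The call was lost without replicate 3 of the DMSO group (0.0626) or replicate 2 (0.0894) or 3 (0.0992) of the RepSox group. RPS23 (chr5:82273358-82278577, minus), a protein of the decoding centre, read 260, 201 and 244 CPM and then 273, 287 and 307 CPM. It rose by 0.29 (SE 0.092, adjusted p = 0.027), and lost the call without replicate 2 of the DMSO group (0.155) or replicate 2 (0.0576) or 3 (0.11) of the RepSox group. Of the coding bases of RPS23, 57.1% overlap a gene on the opposite strand. The strand setting of the counting is not stated, so reads of both genes may not have been told apart.

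The count of 25 rested on single libraries. It was 6 without replicate 3 of the DMSO group, the library with the lowest share, and 9, 12 and 16 without replicates 1, 2 and 3 of the RepSox group. It was 50 when only the 6 libraries compared were fitted and 42 without the filter on low counts. Without the 7 overlapping members, 25 of 74 rose. The median of 0.18 was 0.17 with scaling by library totals.

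Over all genes tested 12.5% rose and 12.8% fell. Among the other lists, 33 of 76 mitochondrial ribosomal protein genes rose and 0 fell (median 0.19). Of 19 other TOP mRNAs 7 rose and 1 fell. The latter was TPT1, at -0.29 (SE 0.076, adjusted p = 0.00952), which encodes the translationally controlled tumour protein. MYC read 406, 423 and 379 CPM with RepSox and rose by 0.94 (SE 0.065, adjusted p = 1.24e-08).

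With RepSox in both groups, DOX changed no member past the test: 0 of 81 rose, where 0.0942% of all genes rose, and 0 fell, where 0.383% fell. At an unadjusted p below 0.05 edgeR called 4 higher and 9 lower, and DESeq2 called 0 in either direction. The log2 changes ran from -0.36 to 0.37 with a median of -0.02. Without the 7 overlapping members, 0 of 74 were called. ZEB1 read 5.04 to 5.73 CPM with RepSox alone and 14.6 to 17.4 CPM with DOX and RepSox, with no overlap. Without replicate 1 of the group with DOX and RepSox, 5 members rose and 7 fell, and without the low-count filter 1 rose and 6 fell.

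Whether RepSox acted differently with and without DOX was tested as an interaction. It was positive for 5 of 81 members, where it was for 13% of all genes, and negative for 0, where it was for 9.61%. At an unadjusted p below 0.05 edgeR called 2 negative, DESeq2 called 6 positive and 1 negative, and edgeR with scaling by library totals 3 positive and 2 negative. The median was 0.03. It was 0.53 for RPL17 (SE 0.14, adjusted p = 0.0103) and, for RPL7L1, 0.31 (SE 0.076, adjusted p = 0.00622). RPL19, a protein of the bridge between the subunits, had 0.31 (SE 0.099, adjusted p = 0.0313) and RPL29 0.27 (SE 0.092, adjusted p = 0.0437). RPL19 lost its call without any 1 of 8 of the 12 libraries (0.0523 to 0.105), namely replicates 1 and 2 of the DMSO group, 1 and 2 of RepSox, 1 and 3 of DOX with DMSO, and 2 and 3 of DOX with RepSox. Scaling by library totals (0.0713) and upper-quartile scaling (0.0616) each lost the call of RPL19 too. Without the 7 overlapping members, 3 members were positive. Leaving out single libraries gave 3 to 10 positive members. The count was 3 without replicate 1 or 2 of the DMSO group, replicate 1 of RepSox, replicate 1 of DOX with DMSO or replicate 2 of DOX with RepSox, and 10, with 5 negative, without replicate 1 of DOX with RepSox. Negative members also appeared without replicate 3 of RepSox (1) and without replicate 2 (2) or 3 (1) of DOX with DMSO.

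In SW620 RepSox lowered members. Of 82 tested, 24 fell, where 9.24% of all genes fell, and 0 rose, where 10.2% rose (6 SW620 libraries, 17147 genes; 0 rose by edgeR at an unadjusted p below 0.05 and 0 by DESeq2). The median log2 change was -0.10, against -0.01 over all genes tested. The falls covered 16 of 46 core genes of the large subunit and 8 of 31 of the small subunit, and 0 of 5 paralogs. Without the overlapping members, 22 of 75 fell.

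RPL10 (chrX:154389955-154409168, plus), a protein that joins the large subunit late in its assembly and whose pseudogenes hold part of the counts, read 1370, 1340 and 1240 CPM with DMSO and 1040, 1100 and 1040 CPM with RepSox. It fell by 0.31 (SE 0.043, adjusted p = 7.48e-06) with no overlap. RPL3 (chr22:39312882-39320389, minus) read 1930, 1910 and 1760 CPM and then 1500, 1530 and 1610 CPM, and fell by 0.27 (SE 0.043, adjusted p = 5.7e-05). RPL13A (chr19:49487554-49492308, plus), which also silences interferon-γ response messages when released from the ribosome, read 1470, 1380 and 1290 CPM and then 1160, 1150 and 1180 CPM. It fell by 0.24 (SE 0.044, adjusted p = 0.000237). RPS9 fell by 0.20 (SE 0.042, adjusted p = 0.00131). All of the RepSox libraries lay below all of the DMSO libraries for these 4 genes.

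The 24 falls became 10 without replicate 1 of the DMSO group and 13 without its replicate 2, 11 and 12 without replicates 1 and 2 of the RepSox group, and 42 without replicate 3 of the DMSO group, which had the lowest share. With scaling by library totals there were 42 and with upper-quartile scaling 41.

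Other TOP mRNAs fell in 12 of 19 and rose in 0, with a median of -0.15. Over all genes tested 9.24% fell and 10.2% rose. EEF1A1, the elongation factor that delivers tRNA to the ribosome, fell by 0.38 (SE 0.04, adjusted p = 9.65e-08), and HNRNPA1, a splicing factor, by 0.35 (SE 0.04, adjusted p = 4.01e-07). Of 76 mitochondrial ribosomal protein genes 9 rose and 1 fell, and assembly factors rose in 1 of 18 and fell in 0. Among 2203 genes outside the rule with at least 100 CPM, 10.3% fell and 21.6% rose. MYC read 400, 407 and 390 CPM with DMSO and 412, 396 and 410 CPM with RepSox, with overlapping groups and a log2 change of 0.03 (adjusted p = 0.718).

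The response to RepSox was compared between the lines directly, as SW620 minus HT-29 iZEB1 without DOX, in all 18 libraries. It was lower in SW620 for 28 of 82 members, where it was lower for 4.99% of all genes, and higher for 0, where it was higher for 5.39% (0 by edgeR at an unadjusted p below 0.05 and 0 by DESeq2). The median difference was -0.27 on the log2 scale, against -0.02 over all 19107 genes tested. RPL3 differed most, by -0.47 (SE 0.077, adjusted p = 0.000146), having risen by 0.19 in HT-29 iZEB1 and fallen by 0.27 in SW620. The rise of RPL3 in HT-29 iZEB1 lost its call without replicate 3 of the DMSO group (0.126) or replicate 1 (0.0716) or 2 (0.0759) of the RepSox group.

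RPL13A differed by -0.45 (SE 0.089, adjusted p = 0.00119) and RPS23 by -0.44 (SE 0.12, adjusted p = 0.0127). RPL12, at the base of the stalk, differed by -0.43 (SE 0.1, adjusted p = 0.00569), and RPLP1 by -0.39 (SE 0.095, adjusted p = 0.00801). In HT-29 iZEB1, RPL10 read 1630, 1690 and 1610 CPM with DMSO and 1720, 1560 and 1650 CPM with RepSox, with overlapping groups. Its difference of -0.32 (SE 0.084, adjusted p = 0.0145) lost the call without replicate 1 of the SW620 DMSO group (0.0511). Of the 5 paralogs tested, 0 differed between the lines past the test.

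Without the overlapping members, the response was lower for 27 of 75. The count of 28 was 18 without replicate 3 of the HT-29 iZEB1 DMSO group, without replicate 1 of the SW620 DMSO group or without replicate 1 of the SW620 RepSox group. It was 50 when only the 12 libraries compared were fitted. Other TOP mRNAs were lower in 11 of 19 and higher in 0, and mitochondrial ribosomal protein genes lower in 11 of 76 and higher in 2. Over all genes tested 4.99% were lower and 5.39% higher.

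**Figure D3:**
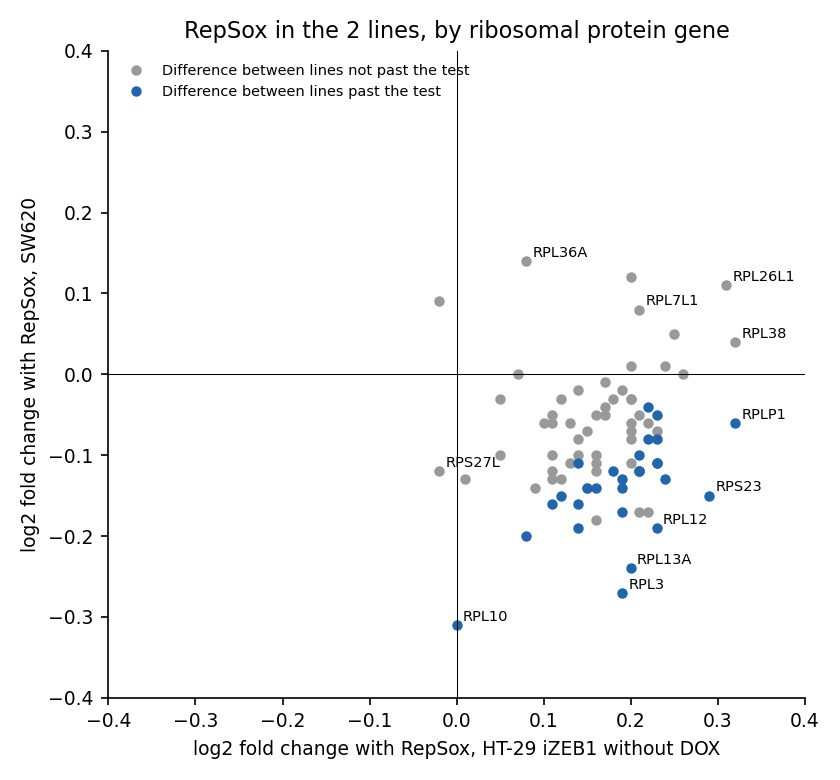
Log2 fold change with RepSox in HT-29 iZEB1 without DOX (horizontal axis) and in SW620 (vertical axis); each point is a ribosomal protein gene tested in both, blue where the difference between the lines passed the test. Most genes lie to the right of 0 and below 0, with RPL3 at 0.19 and -0.27, and RPL10 at -0.31 in SW620 and near 0 in HT-29 iZEB1.

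Between the lines with DMSO, members differed in both directions. Of 82 tested, 39 were higher in SW620, where 40.1% of all genes were, and 26 lower, where 36.5% were, so the shares of the members called were 47.6% and 31.7%. The median difference was 0.13, against 0.06 over all genes. With scaling by library totals the median was 0.26 for the members and 0.18 for all genes. Among 2288 genes outside the rule with at least 100 CPM, 30.2% were higher and 56% lower, with a median of -0.25. Without the overlapping members, 37 of 75 were higher and 24 lower. Leaving out single libraries gave 28 to 35 higher, so none of these fits reached 39, and 26 to 29 lower.

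RPS15 (chr19:1438358-1440494, plus), a protein of the small subunit head, read 187, 247 and 143 CPM in HT-29 iZEB1 and 459, 461 and 385 CPM in SW620. It was higher by 1.18 (SE 0.12, adjusted p = 3.95e-09), with no overlap. RPL38 was higher by 1.13 (SE 0.091, adjusted p = 2.61e-11), at 448, 484 and 431 CPM in SW620. RPL26 (1.19) and RPL36A (1.12) were also higher and overlap other genes. RPL3L, a paralog with at most 0.51 CPM in any library, was higher by 1.32 (SE 0.54, adjusted p = 0.0279). That call was lost without replicate 1 (0.0754) or 3 (0.153) of the HT-29 iZEB1 DMSO group or replicate 1 of the SW620 DMSO group (0.132), and with DESeq2 (0.0607).

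RPL21 (chr13:27251309-27256691, plus), whose pseudogenes take part of its counts, read 309, 351 and 302 CPM in HT-29 iZEB1 and 138, 139 and 138 CPM in SW620. It was lower by a log2 difference of -1.22 (SE 0.11, adjusted p = 4.4e-10). RPL13A read 3300, 3270 and 2750 CPM and then 1470, 1380 and 1290 CPM, a difference of -1.17 (SE 0.064, adjusted p = 1.17e-14). RPL34 (chr4:108620566-108630412, plus) was lower at -1.13 (SE 0.05, adjusted p = 1.6e-16) and RPL28 (chr19:55385345-55403250, plus) at -0.99 (SE 0.096, adjusted p = 1.03e-09). None of these 4 genes had overlapping groups.

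In places the direction matched that of other genes on the chromosome. Only chromosomes 17 and 19 were split, at 25 Mb, a choice that was not planned beforehand. All 8 members on chromosome 19 after 25 Mb were lower in SW620, with a median of -0.92. Among them were RPS9, RPS16, RPS19, RPL13A, RPL18 and RPL28. The other 697 genes tested there had a median of -0.97, and 67.9% of them were lower. On the same chromosome before 25 Mb, 3 of 4 members were higher, with a median of 0.63, and the other 525 genes had a median of 0.40. RPL26 (1.19) was the only member on chromosome 17 before 25 Mb, where the other 328 genes had a median of 0.98. On chromosome 5 all 4 members were higher, with a median of 0.61, while the other 810 genes had a median of 0.11. On chromosome 4 the other 609 genes had a median of -0.36, while RPL9 and RPS3A were higher in SW620, by up to 0.41. RPL34, on the same chromosome, was lower and differed more than those genes. RPL21 likewise differed more than the other genes of chromosome 13 (median -0.41). Whether gene copy number differs between the lines there was not tested.

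**Figure D4:**
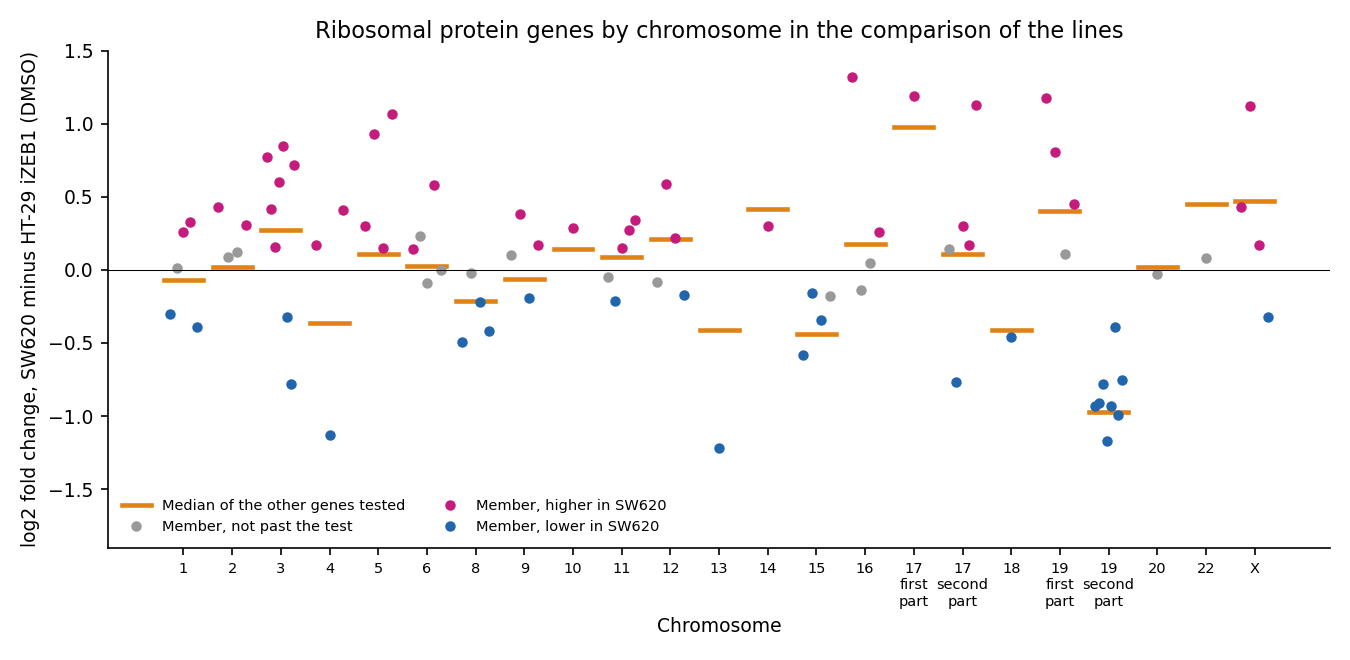
Log2 difference between SW620 and HT-29 iZEB1 with DMSO (vertical axis) by chromosome (horizontal axis, chromosomes 17 and 19 split at 25 Mb); points are ribosomal protein genes coloured by call, and orange lines the median of the other genes tested. The 8 members on the second part of chromosome 19 (median -0.92) lie around the median of their neighbours (-0.97). Those on the first part (median 0.63) run from 0.11 to 1.18, where their neighbours have a median of 0.40.

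Of the 5S particle proteins, RPL5 changed with RepSox about as much as the members' median (0.20 with DOX, 0.18 without DOX, -0.10 in SW620). Without DOX its change was 0.16, not past the test. RPL11 changed by 0.05 without DOX and by -0.03 in SW620, neither past the test. RPL5 read 987, 905 and 878 CPM in HT-29 iZEB1 with DMSO, and 1160, 1130 and 1180 CPM in SW620 with DMSO, where it was higher by 0.33 (SE 0.06, adjusted p = 2.96e-05). With RepSox in SW620 RPL5 fell by 0.14 (SE 0.04, adjusted p = 0.0155), a call lost without replicate 2 of the RepSox group (0.0686). With RepSox beside DOX it rose by 0.18 (SE 0.07, adjusted p = 0.0398). That call was lost without replicate 2 (0.169) or 3 (0.0536) of the group with DOX and DMSO. It was also lost without replicate 2 (0.0893) or 3 (0.168) of the group with DOX and RepSox. Scaling by library totals (0.183), upper-quartile scaling (0.168) and fitting only the libraries compared (0.0789) each lost it too. RPL11 stayed between 729 and 903 CPM in all 18 libraries. It rose by 0.17 (SE 0.062, adjusted p = 0.0313) with RepSox beside DOX. The call was lost without replicate 1 (0.0557) or 3 (0.0685) of the group with DOX and DMSO or replicate 2 of the group with DOX and RepSox (0.151). It was also lost with scaling by library totals (0.171), with upper-quartile scaling (0.165) and with only the libraries compared (0.0591).

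Among the stalk proteins, RPLP0 was the member that fell in SW620 with RepSox, by 0.16 (SE 0.042, adjusted p = 0.00896), from 2120, 2080 and 2020 CPM to 1770, 1830 and 1970 CPM. The call was lost without replicate 1 of the DMSO group (0.0519) or of the RepSox group (0.0705). RPLP1 and RPLP2 had log2 changes there of -0.06 and -0.02, neither past the test. RPLP1 was lower in SW620 than in HT-29 iZEB1 with DMSO, with -0.34 (SE 0.067, adjusted p = 6.74e-05). RPLP0 was lower there too, with -0.17 (adjusted p = 0.0158), a call lost with scaling by library totals (0.516) and upper-quartile scaling (0.122). RPLP2 had 644 to 889 CPM over all libraries. With RepSox beside DOX RPLP2 rose by 0.17 (adjusted p = 0.0432), a call lost in 7 of 14 alternatives.

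RPS6, the S6 kinase substrate, had 1320 to 1660 CPM in all 18 libraries, and its changes with RepSox were 0.13 without DOX (adjusted p = 0.139) and -0.06 in SW620 (adjusted p = 0.31). With DOX its rise of 0.16 (SE 0.062, adjusted p = 0.0443) was lost without any 1 of the 6 libraries compared (0.0533 to 0.154). That call was also lost with scaling by library totals (0.21), with upper-quartile scaling (0.202) and with only the libraries compared (0.0747). RPSA, which also serves as a laminin receptor, fell by 0.15 (SE 0.041, adjusted p = 0.0107) with RepSox in SW620, which was lost without replicate 1 of the RepSox group (0.0705). With RepSox beside DOX RPSA rose by 0.17 (adjusted p = 0.0237), a call lost in 7 of 14 alternatives. In SW620 with DMSO it was higher than in HT-29 iZEB1 by 0.16 (adjusted p = 0.00575), a call lost in 4 of 14.

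Per length of transcript the paralogs were lower than their partners: in HT-29 iZEB1 with DMSO RPS27L had 69.3 and RPS27 1580 CPM per kb, RPL22L1 20.4 and RPL22 212, and RPL26L1 26.8 and RPL26 68.2. RPL10L and RPL39L were at or near 0 in every library, with at most 0.0288 CPM, and RPL3L had at most 0.51 CPM. With the Y-linked copies, 5 of the 9 paralogs did not pass the filter in HT-29 iZEB1. RPS27L (chr15:63125872-63158021, minus) read 64.9, 57.1 and 65.5 CPM with DOX and DMSO and 56.7, 51.4 and 50.7 CPM with DOX and RepSox. It fell by 0.25 (SE 0.072, adjusted p = 0.00686), with no overlap. Its partner RPS27 read 538, 625 and 580 CPM and then 621, 629 and 549 CPM, with overlapping groups and a change of 0.04 (adjusted p = 0.676). Whether the 2 genes differ in their response was not tested.

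RPL22L1 and RPL22, partners that can replace each other in the ribosome, both rose with RepSox beside DOX, by 0.34 (SE 0.093, adjusted p = 0.00446) and 0.24 (SE 0.06, adjusted p = 0.00263). Between the lines both were lower in SW620, RPL22L1 with -0.78 at 16.3, 15.4 and 16.5 CPM against 27, 27.8 and 27.8 CPM, and RPL22 with -0.30. RPL26L1 was higher in SW620 by 1.07 (SE 0.083, adjusted p = 1.32e-11), at 40.2, 40 and 39.9 CPM against 19.3, 16.6 and 21.1 CPM, and RPL26 by 1.19. RPL26L1 rose with RepSox without DOX by 0.31 (SE 0.09, adjusted p = 0.0164), a call lost without replicate 2 of the DMSO group (0.101) or of the RepSox group (0.0833). RPL7L1 was higher in SW620 by 0.58 (SE 0.047, adjusted p = 4.07e-11), while RPL7 had a difference of -0.02 (adjusted p = 0.849).

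**Figure D5:**
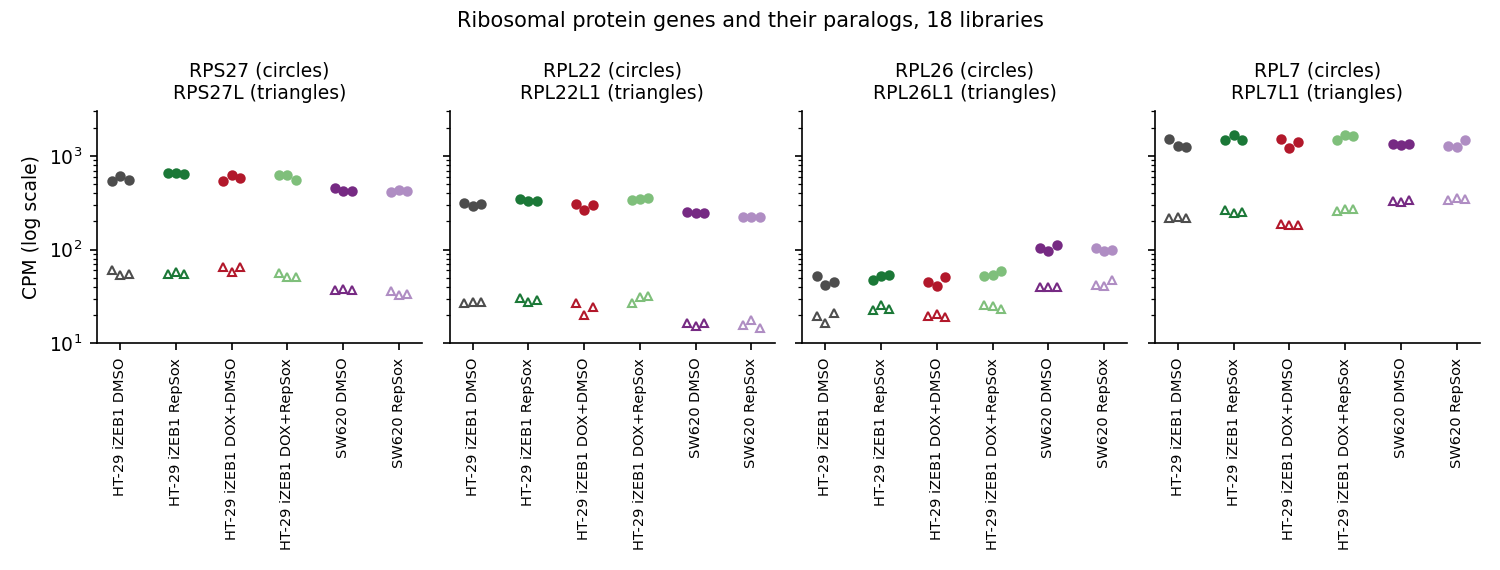
CPM (vertical axis, log scale) of 4 ribosomal protein genes (filled circles) and their paralogs (open triangles) in the 18 libraries of 6 groups (horizontal axis). CPM are not per length. Each paralog lies below its partner in every library; RPL26 and RPL26L1 are both higher in SW620 (1.19 and 1.07 on the log2 scale), RPL22L1 and RPS27L are lower there (-0.78 and -0.58).

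The members that matched a start in RefSeq were also split by the start tract, 47 tested members with it and 19 without in HT-29 iZEB1. With RepSox beside DOX, 27 of 47 with the tract rose (median 0.18) and 14 of 19 without it rose while 1 fell (median 0.29). With RepSox alone, 15 of 47 and 8 of 19 rose. In SW620, 17 of 47 with the tract fell with RepSox (median -0.10) and 3 of 19 without it (median -0.08). Over all genes tested, 26.8% rose and 25.5% fell with RepSox beside DOX. With RepSox alone 12.5% of all genes rose, and in SW620 9.24% fell. The calls counted here depend on single libraries, as described above. The difference between members with and without the tract was not tested.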

How the data were processed

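The table deposited by the authors holds raw counts (whole numbers, no scaling) by gene symbol for the 18 libraries. The submitters' processing notes name GRCh38.p13, HISAT2 2.2.0, featureCounts 2.0.0, FastQC 0.11.9 and DESeq2 1.34.0. For tool settings, strand and annotation nothing is stated (not given in the sources used here), so reads of genes on opposite strands cannot be told apart, and reads shared between overlapping genes or copies may have been dropped or split.

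Counts were tested with edgeR 4.0.16 (R 4.3.3): filterByExpr with a minimum count of 10, TMM scaling, glmQLFit and glmQLFTest by group, and p-values adjusted by Benjamini-Hochberg across every gene in the fit, with calls at an adjusted p below 0.05. HT-29 iZEB1 (12 libraries) and SW620 (6 libraries) were fitted separately, and comparisons of the lines over all 18. The spread between replicates was 7.82%, 5.1% and 7.04% (biological coefficient of variation). SE was derived from the unshrunken log2 fold change and its F statistic. CPM are counts scaled to TMM library sizes, and errors cover these libraries only. Shares of counts were compared by exact permutation tests. The fits were tested on simulated data.

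Groups came from the labels. Coordinates are from GENCODE 29 (GRCh38) by symbol, start sequences from RefSeq (GRCh38.p14). Length is the median over a gene's protein-coding transcripts. Members and lists were chosen with earlier results of these data known. In each comparison the text names the called members that rose most (up to 4) and fell most (up to 4) and reached 5 CPM in the higher group, the 5S particle and stalk proteins, RPS6, RPSA, paralogs with partners, the extremes of level, and up to 4 called genes of each list. Other members are named after their values were seen. Some members that this rule names are not reported here by name, but stay in all counts and medians. Alternatives were other scalings, no filter, DESeq2 1.42.0, other sets of libraries, a replicate block and leaving out each library. Leaving out the 7 members that overlap another gene was chosen after seeing the data.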

Additional observations from a re-analysis of the deposited data

Results flagged for a closer look

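Effects of the same treatment differed between groups in 2 tests of the difference itself. The first compared RepSox with and without DOX in HT-29 iZEB1 by an interaction term in edgeR's quasi-likelihood fit. It was positive for 5 of 81 members, where it was for 13% of all genes, among them RPL17 (0.53 on the log2 scale), RPL7L1 (0.31) and RPL19 (0.31). RPL19 lost its call in 10 of 19 alternatives, with adjusted p up to 0.105. RPL17, like RPL22 below, is a member of uncertain counts, and ZEB1 differed between the DOX groups with and without RepSox.

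The second compared RepSox in SW620 with RepSox in HT-29 iZEB1 without DOX. The response was lower in SW620 for 28 of 82 members, where it was for 4.99% of all genes. Among the named genes these were RPL3 (-0.47), RPL13A (-0.45), RPS23 (-0.44), RPL12 (-0.43), RPLP1 (-0.39), RPL10 (-0.32), RPS4X (-0.31), RPL5 (-0.30), RPL22 (-0.30), RPLP0 (-0.28) and RPSA (-0.27). Of these, RPL10, RPS4X, RPL5, RPLP0 and RPSA lost the call when single libraries were left out, with adjusted p up to 0.0511, 0.0787, 0.0766, 0.114 and 0.0584. RPLP0 also lost it in edgeR with RLE scaling (0.0607). RPL3, RPL13A, RPS23, RPL12, RPLP1 and RPL22 kept it in every alternative run, with adjusted p up to 0.000845, 0.00605, 0.0438, 0.0255, 0.0285 and 0.0369. With 3 libraries in each group, no group was tested for outlying libraries.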

How the results depend on the processing

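Of 69 calls of members that the naming rule picks, 42 held in every alternative and 27 were lost in at least 1, and none of them reversed. Some of the 69 are not given in the text. Calls of genes in the other lists, and of members named outside the rule, such as RPS7 and RPL29, were not followed through the alternatives 1 by 1. The members' median changed sign with scaling by library totals for DOX in DMSO (-0.04 to 0.03) and for the interaction (0.03 to -0.02), and with upper-quartile scaling (0.02 and -0.01), as the median of all genes moved too. With scaling by library totals, DOX in DMSO raised 2 members, RepSox with DOX raised 31 and lowered 2, the interaction was positive for 3 and negative for 2, and RepSox lowered 42 in SW620. With upper-quartile scaling these were 1, 33 and 2, 3 and 1, and 41. Without the low-count filter, RepSox without DOX raised 42, DOX in RepSox raised 1 and lowered 6, the interaction was negative for 4, and the response was lower in SW620 for 53. With only the libraries compared, RepSox without DOX raised 50, and the response was lower in SW620 for 50. DESeq2 and the replicate block each gave 1 negative interaction, and the causes were not tested. Same-numbered libraries did not vary together in every pair (r from -0.28 to 0.18), so the paired fit was not preferred; it raised 36 members with RepSox without DOX and lowered 16 with RepSox in SW620. Without the 7 overlapping members, DOX in DMSO lowered 4 and the interaction was positive for 3, with fewer members counted.

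Leaving out single libraries gave 0 to 1 risen and 4 to 14 fallen for DOX in DMSO, 1 to 2 fallen for RepSox with DOX, 6 to 30 risen for RepSox without DOX, 0 to 5 risen and 0 to 7 fallen for DOX in RepSox, 3 to 10 positive and 0 to 5 negative interactions, 0 to 1 risen and 10 to 42 fallen in SW620, and 18 to 36 lower responses in SW620. The share of counts moved with DOX by -0.0427 to 0.276 points, lowest without replicate 3 of the DMSO group. Groups left with 2 libraries are assumed to vary like the others. At 1.09 to 2.44 CPM in the DOX groups, depth limits RPS10.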

Other observations

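Host genes of small nucleolar RNAs, which guide the modification of ribosomal RNA and whose spliced transcripts are also of the TOP class, included larger changes than the ribosomal protein genes. Of 13 tested, DOX in DMSO lowered 4, where 21.1% of all genes fell, and 0 rose, where 19.2% did. SNHG12 fell by 1.07 on the log2 scale (SE 0.1, adjusted p = 9.36e-08), SNHG15 by 0.81 (SE 0.082, adjusted p = 2.39e-07) and SNHG1 by 0.64 (SE 0.062, adjusted p = 1.23e-07). With RepSox beside DOX 6 rose, where 26.8% of all genes did, SNHG15 by 0.91 (SE 0.082, adjusted p = 3.16e-08) and SNHG12 by 0.90 (SE 0.1, adjusted p = 5.06e-07). Adjusted p-values are from edgeR's quasi-likelihood test, and both comparisons share the group with DOX and DMSO.

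Among regulators of TOP mRNAs, EIF4EBP1, the cap-binding inhibitor that mTOR controls, rose with RepSox in each setting. It rose by 0.73 without DOX (SE 0.11, adjusted p = 6.36e-05), by 1.40 with DOX (SE 0.11, adjusted p = 4.82e-09) and by 0.44 in SW620 (SE 0.05, adjusted p = 3.84e-07), where 24 of 82 ribosomal protein genes fell. EIF4EBP2 fell with RepSox beside DOX, by 0.52 (SE 0.055, adjusted p = 2.69e-07).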
